A study of Mus musculus with 16 samples.

Results

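The 43 forkhead genes, *Foxa1* to *Foxs1*, were followed in first molar and incisor germs of C57Bl6 mouse embryos at E14.5. They are all the genes of the array whose only symbol is that of a forkhead gene, leaving out antisense and opposite-strand transcripts, and they were picked out among 19938 genes by name. They were read by 45 of the 35556 probe sets of the Affymetrix Mouse Gene 1.0 ST array, and *Foxf1* and *Foxn3*, which have more than 1, are given by the probe set with the highest mean. The samples were 8 of mandibular first molars, 4 of lower incisors and 4 of maxillary first molars, each RNA from 4 pooled tooth germs microdissected from wild-type embryos. A value is a log2 signal after RMA, so that a difference of 1 is a doubling, and signals of different probe sets are not on 1 scale of RNA amount. The question was whether forkhead genes differ between tooth types, in the same jaw and between the jaws. The source animals of each pool are not given, so the p-values measure only the spread between these samples, which may be partly technical.

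Forkhead proteins bind DNA through a winged-helix domain. In the developing face and gut, *Foxf1*, *Foxf2*, *Foxc2*, *Foxd1*, *Foxd2* and *Foxl1* are mesenchymal genes, and several of them are known to respond to hedgehog ligands that the overlying epithelium secretes. *Foxi3* is an epithelial gene of teeth and hair, known as a target of ectodysplasin and activin, and a mutation of it causes missing teeth in hairless dogs. FoxO proteins are held out of the nucleus by insulin and Akt signalling, FoxM1 drives genes of mitosis, and Foxj1 drives genes of motile cilia.

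*Foxf2*, *Foxd1* and *Foxd2* had lower signals in mandibular molars than in both other tooth types, and their promoters are shown for that reason. Each run is the 250 bases before the start of the gene on its own strand (RefSeq, GRCm38.p6), with the letters GGGCGG or CCGCCC of a GC box in capitals.
Foxf2: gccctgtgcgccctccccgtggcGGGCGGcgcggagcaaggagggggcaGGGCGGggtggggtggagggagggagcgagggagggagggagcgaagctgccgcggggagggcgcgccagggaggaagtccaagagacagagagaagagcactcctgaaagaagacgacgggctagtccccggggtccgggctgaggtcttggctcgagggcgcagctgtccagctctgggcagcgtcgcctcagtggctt
Foxd1: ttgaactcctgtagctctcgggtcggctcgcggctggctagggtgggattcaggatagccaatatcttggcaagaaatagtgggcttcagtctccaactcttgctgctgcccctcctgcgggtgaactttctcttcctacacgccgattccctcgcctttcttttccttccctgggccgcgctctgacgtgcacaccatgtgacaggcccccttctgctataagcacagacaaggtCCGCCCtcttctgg
Foxd2: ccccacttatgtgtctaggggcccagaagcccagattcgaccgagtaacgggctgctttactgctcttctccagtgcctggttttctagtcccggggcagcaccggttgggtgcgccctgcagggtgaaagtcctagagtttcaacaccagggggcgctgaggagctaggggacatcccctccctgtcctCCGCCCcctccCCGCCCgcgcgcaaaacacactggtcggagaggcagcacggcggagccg
The *Foxf2* run is chr13:31625566-31625815 on the plus strand, with 71.6% G and C, 21 CpG and 2 GC boxes. The *Foxd1* run is chr13:98353995-98354244 on the plus strand, with 57.2% G and C, 12 CpG and 1 GC box. The *Foxd2* run is chr4:114908899-114909148 on the minus strand, with 64.4% G and C, 16 CpG and 2 GC boxes. All 3 are thus richer in G and C than the median of 52.4% over 32851 promoter windows of the same length, and in CpG than their median of 6. Of the 33 windows of forkhead genes, 26 lie above the first median and 25 above the second, and the family's own medians are 62.0% G and C and 16 CpG, so the *Foxd1* run is below the family's median in both. A GC box on either strand is in 32.7% of those windows and in 23 of 33 windows of the 28 forkhead genes with a window, and its letters hold a CpG, so the counts overlap. CCAAT is in the *Foxd1* run alone of the 3, and in 33.8% of all windows. TATAAA (12.4% of all windows), the forkhead letters TGTTTAC (3.2%) and the Gli letters TGGGTGGTC (0.2%) were searched on both strands and are in none of the 3 runs.

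The arrays were alike in range, with sample medians of 6.80 to 6.99 and 76.1% to 79.2% of probe sets above 5. The mean signal of 16 dental mesenchyme markers was 10.20 to 10.55 in mandibular molars, 9.80 to 9.99 in lower incisors and 10.53 to 10.65 in maxillary molars, and that of 16 dental epithelium markers was 9.23 to 9.77 in mandibular molars, 9.21 to 9.42 in incisors and 9.42 to 9.65 in maxillary molars, so tooth germ markers were present in every sample. Markers of neighbouring tissue differed between the tooth types. The mean of 25 skeletal muscle genes ranged over 7.34 to 8.68 in mandibular molars, 8.38 to 8.59 in the incisors and 6.62 to 7.03 in maxillary molars, and by the test used for forkhead genes 9 of the 25 were lower than in incisors and 18 higher than in maxillary molars. The mean of 19 cartilage genes was 7.07 to 7.22 in mandibular molars, 8.26, 7.33, 7.47 and 8.25 in the 4 incisors in order of their numbers, and 7.15 to 7.22 in maxillary molars, and 14 were lower and 1 higher than in incisors, with 3 lower than in maxillary molars. The mean of 15 genes of keratinizing epithelium was 6.44 to 7.25 in mandibular molars, 7.11 to 7.53 in incisors and 6.61 to 7.12 in maxillary molars, and 7 were lower than in incisors. The mean of 15 neuron and Schwann cell genes was 6.71 to 7.11 in mandibular molars, 7.12 to 7.23 in incisors and 6.60 to 6.76 in maxillary molars, and that of 10 brain genes was 5.83 to 6.12 in mandibular molars, 6.26 to 6.40 in incisors and 5.71 to 5.86 in maxillary molars. Of 14 tested neuron and Schwann cell genes, 3 were lower and 1 higher than in incisors, and 2 were higher than in maxillary molars. Of 9 tested brain genes, 1 was lower than in incisors and none passed against maxillary molars. The median log2 fold changes against incisors were -0.02 and -0.12 for these lists, beside -0.02 over all tested probe sets. The neuron list holds *Isl1*, which the study reports as enriched in incisors. The mandibular molars were also not uniform. Correlated over probe sets, samples 1 to 4 stood at a median of 0.985 to the incisors and 0.982 to the maxillary molars, and samples 5 to 8 at 0.979 to the incisors and 0.992 to the maxillary molars, a split for which the labels give no batch. Values are therefore also given from mandibular molars 1 to 4 and the incisors alone, the first sample set, and from mandibular molars 5 to 8 and the maxillary molars alone, the second sample set. The labels do not state these sets, which were formed from the values of these same samples. Each joins mandibular molars to the tooth type they correlated with more, so its differences can be smaller by that choice alone. Within the first set 1 muscle gene, 3 cartilage genes and 6 genes of keratinizing epithelium were lower than in incisors and 1 cartilage gene was higher, and within the second 12 muscle genes were higher than in maxillary molars and 1 cartilage gene was lower. Of the neuron and Schwann cell genes, 2 were lower and 2 higher than in incisors within the first set. Within the second, 2 were higher than in maxillary molars. Of the brain genes, 1 was lower than in incisors within the first set. In pooled tissue of this kind, fewer cells of a type and less RNA per cell cannot be told apart.

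Of the 43 forkhead genes, 13 had a mean signal above 8.78, the third quartile of all probe sets, and 19 lay below the median of 6.9. All 43 exceeded a signal of 5 in at least 1 sample of each comparison and were tested. The files give no detection call, so it was not established that genes near the lower end, such as *Foxr2* and *Foxd4* with group means of 5.13 to 5.33, were expressed. Nor was it established for *Foxd3*, with a mean over 16 samples of 6.57, or for *Foxd2* and *Foxb2*, at 6.96 and 7.03, near that median. The plot of levels by tooth type gives the mean and range of each member.

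**Figure D1:**
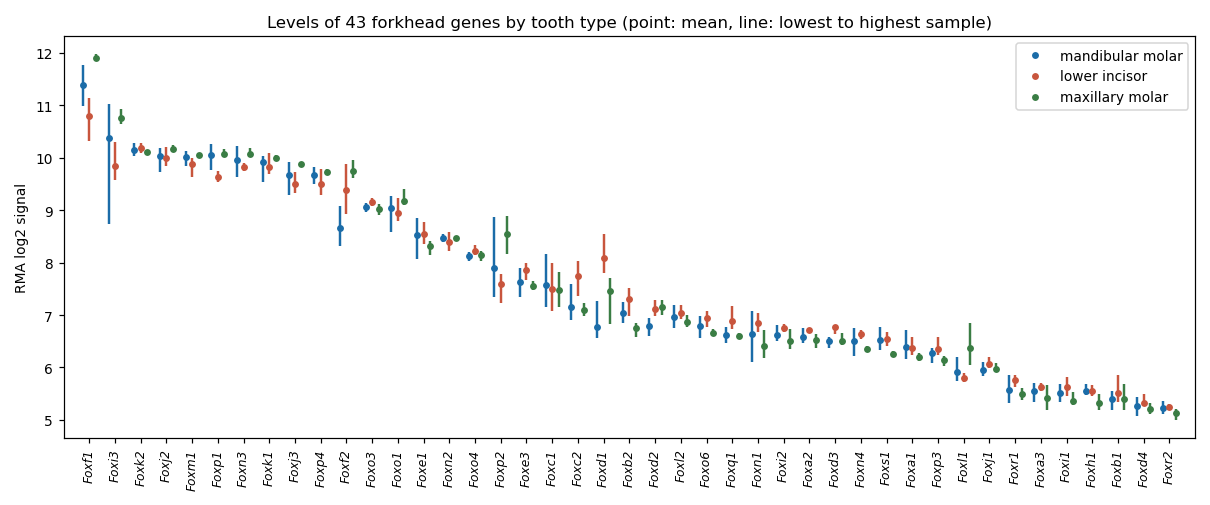
Log2 signal (RMA) of the 43 forkhead genes, with the mean as a point and the lowest to highest sample as a line, for 8 mandibular molar, 4 lower incisor and 4 maxillary molar samples, in the order of the mean over all 16 samples. *Foxf1*, at 10.32 to 11.97 over all samples, stands at the top, and the longest line is that of *Foxi3* in mandibular molars, from 8.73 to 11.03.

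In mandibular molars compared with lower incisors, 5 forkhead genes fell, *Foxd1*, *Foxf2*, *Foxc2*, *Foxd2* and *Foxd3*, and 2 rose, *Foxf1* and *Foxp1*. The 5 that fell are all among the 11 genes listed here under facial mesenchyme and neural crest, and so is *Foxf1*. That list was written with earlier results of these data known. It also holds genes known mainly from other tissues, such as *Foxl2* and *Foxs1*, so the grouping is a description only. A gene passed at an adjusted p under 0.1 (limma, Benjamini-Hochberg over all tested probe sets) with a fold change above 1.2. By this rule 11.6% of the forkhead genes were lower and 4.65% higher, and of all genes with 1 symbol 3.09% were lower and 3.91% higher. At a fold change above 2, *Foxd1* alone was lower and no forkhead gene was higher, with 0.341% of all genes lower and 0.428% higher. Signals did not overlap between the groups for 4 forkhead genes, *Foxd1*, *Foxd2*, *Foxd3* and *Foxp1*, against 5.43% of all genes. At an unadjusted p under 0.05 were 11 forkhead genes, and 22.6% of all genes. The median log2 fold change of the family was -0.07, beside -0.02 over all tested probe sets.

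In mandibular molars compared with maxillary molars, 3 forkhead genes fell, *Foxf2*, *Foxd1* and *Foxd2*, and 1 rose, *Foxb2*. The 3 that fell are again from the list of facial mesenchyme and neural crest. These were 6.98% and 2.33% of the family, beside 1.59% of all genes lower and 1.4% higher by the same rule. At a fold change above 2, *Foxf2* alone was lower and no member was higher, with 0.128% of all genes lower and 0.151% higher. Signals did not overlap for 5 members, *Foxf1*, *Foxf2*, *Foxb2*, *Foxd2* and *Foxs1*, against 5.32% of all genes, and 11 members and 19.9% of all genes had an unadjusted p under 0.05. The median log2 fold change of the family was 0.04, beside 0.02 over all tested probe sets. Both comparisons use the same 8 mandibular molar samples, so a high or low value there enters both.

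**Figure D2:**
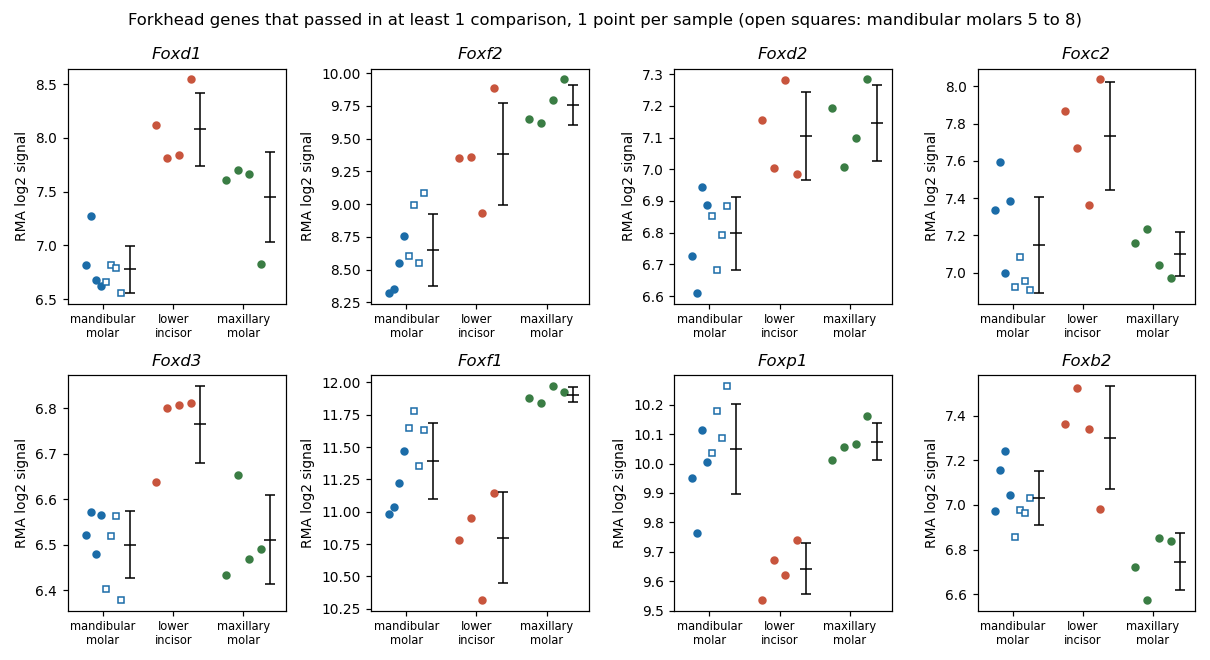
Log2 signal (RMA) of the forkhead genes that passed in at least 1 comparison, 1 point per sample, in mandibular molars, lower incisors and maxillary molars, with the mean ± SD as a black bar and mandibular molars 5 to 8 as open squares. *Foxf2* averaged 8.65 in mandibular molars, 9.38 in lower incisors and 9.75 in maxillary molars, and *Foxd1* averaged 6.78 in mandibular molars, 8.08 in lower incisors and 7.45 in maxillary molars.

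*Foxd1*, which encodes a factor known from kidney stroma and facial mesenchyme, had the largest change of the family between mandibular molars and incisors. Its signal was 6.56 to 7.27 in the 8 mandibular molars (median 6.73), 8.12, 7.81, 7.84 and 8.55 in the incisors, and 7.61, 7.70, 7.67 and 6.83 in the maxillary molars. Every mandibular molar lay below every incisor, whereas maxillary molar 4 lay among the mandibular molars. The mean was 6.78 ± 0.22 in mandibular molars (SD, n = 8), 8.08 ± 0.34 in incisors and 7.45 ± 0.42 in maxillary molars (SD, n = 4 each). The signal was 2.47-fold lower than in incisors (log2 fold change -1.30, standard error 0.15, limma adjusted p = 0.000272), with -1.23 on the log2 scale in the first sample set (limma adjusted p = 0.0229). This call held under each of the 23 alternatives tried. Against maxillary molars the signal was 1.6-fold lower (log2 fold change -0.68, standard error 0.16, limma adjusted p = 0.0728), and within the second set the value was -0.75 but did not pass (limma adjusted p = 0.148). Against maxillary molars the call was lost without any 1 of mandibular molars 1, 3, 4 or 5 or of maxillary molars 1, 2 or 3, with adjusted p up to 0.266 without maxillary molar 2. The part of the neighbouring tissue in either difference was not tested.

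*Foxf2*, known from mutant mice to be needed for palate closure, had the largest change between the jaws. In mandibular molars its signal was 8.32 to 9.08 (median 8.58), in incisors 9.36, 9.36, 8.93 and 9.89, and in maxillary molars 9.65, 9.62, 9.79 and 9.95. All maxillary molars were above all mandibular molars, and incisor 3 alone of the incisors fell within the mandibular range. The mean was 8.65 ± 0.28 in mandibular molars (SD, n = 8), 9.75 ± 0.15 in maxillary molars and 9.38 ± 0.39 in incisors (SD, n = 4 each). The signal was 2.15-fold lower than in maxillary molars (log2 fold change -1.10, standard error 0.14, limma adjusted p = 0.00169), passed within the second sample set at -0.95 (limma adjusted p = 0.0265), and passed under all 23 alternatives. Against incisors it was 1.66-fold lower (log2 fold change -0.73, standard error 0.18, limma adjusted p = 0.0412) and passed within the first set at -0.89 (limma adjusted p = 0.0841). Without incisor 1 it did not pass (limma adjusted p = 0.105).

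*Foxf1*, the close relative of *Foxf2* with a role in gut and lung mesenchyme, had another order of tooth types. Its signal was 10.99 to 11.78 in mandibular molars (median 11.41), 10.78, 10.95, 10.32 and 11.14 in incisors, and 11.88, 11.84, 11.97 and 11.93 in maxillary molars. Maxillary molars were above all other samples, and incisor 4 alone of the incisors lay within the mandibular range. It averaged 11.39 ± 0.29 in mandibular molars (SD, n = 8), 10.80 ± 0.35 in incisors and 11.91 ± 0.06 in maxillary molars (SD, n = 4 each). The rise over incisors was 1.51-fold (log2 fold change 0.59, standard error 0.17, limma adjusted p = 0.0935). It did not pass within the first sample set (0.38, limma adjusted p = 0.628), at the second probe set of the gene (0.34, limma adjusted p = 0.248), or without any 1 of incisors 1, 2 and 3 or of mandibular molars 4 to 8, with adjusted p up to 0.306 without incisor 3. Against maxillary molars the log2 fold change was -0.51 (standard error 0.14) and did not pass (limma adjusted p = 0.106), although it passed without mandibular molar 5, 6 or 8, at 0.0579 without mandibular molar 6. Within the second sample set it was -0.30 (limma adjusted p = 0.193), and at the second probe set of the gene -0.33 (limma adjusted p = 0.151).

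*Foxd2*, another gene of facial mesenchyme, was lower by a small step. The 8 mandibular molars lay at 6.61 to 6.94 (median 6.82), the incisors at 7.16, 7.00, 7.28 and 6.98, and the maxillary molars at 7.19, 7.01, 7.10 and 7.28. No mandibular molar reached the lowest value of either other tooth. The means were 6.80 ± 0.12 in mandibular molars (SD, n = 8), 7.11 ± 0.14 in incisors and 7.15 ± 0.12 in maxillary molars (SD, n = 4 each). The fold was 1.24 against incisors (log2 fold change -0.31, standard error 0.08, limma adjusted p = 0.0497) and 1.27 against maxillary molars (log2 fold change -0.35, standard error 0.07, limma adjusted p = 0.0378). Within the sample sets the values were -0.31 (limma adjusted p = 0.313) and -0.34 (limma adjusted p = 0.0917). The first call was lost without incisor 1 or 3 (adjusted p up to 0.181), the second without maxillary molar 1 or 4 (adjusted p up to 0.152). The call against incisors was also lost after quantile normalization and after median centring.

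*Foxc2*, known for its roles in lymphatic vessels and the axial skeleton, fell against incisors and did not pass against maxillary molars. Its signal was 6.91 to 7.60 in mandibular molars (median 7.04), 7.87, 7.67, 7.37 and 8.04 in incisors and 6.97 to 7.24 in maxillary molars. Incisor 3 lay inside the mandibular range, and the molars of both jaws overlapped. Mandibular molars averaged 7.15 ± 0.26 (SD, n = 8), incisors 7.74 ± 0.29 and maxillary molars 7.10 ± 0.12 (SD, n = 4 each). It was 1.5-fold lower in mandibular molars than in incisors (log2 fold change -0.59, standard error 0.15, limma adjusted p = 0.0551), with 0.05 and an adjusted p of 0.858 against maxillary molars. Within the first sample set the value was -0.41 and did not pass (limma adjusted p = 0.521), nor did it without incisor 1, 2 or 4 or mandibular molar 5 (adjusted p up to 0.168). Incisors 1 and 4, highest of the incisors for the cartilage genes at 8.26 and 8.25, were also the highest for *Foxc2* and for *Foxd1*. They were likewise the highest incisors for the means of endothelium genes (8.89 and 9.04) and of macrophage and mast cell genes (7.49 and 7.73). The same held for pericyte genes (8.13, just above incisor 2, and 8.35), but not for the other marker lists. Whether any of these tissues had a part in these differences was not tested.

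*Foxd3*, a neural crest regulator, was just past the fold threshold. Its signal was 6.38 to 6.57 in mandibular molars (median 6.52), 6.64, 6.80, 6.81 and 6.81 in incisors and 6.43 to 6.65 in maxillary molars. Mandibular molars stayed below every incisor by a narrow gap. The log2 fold change was -0.26 (standard error 0.06, limma adjusted p = 0.0236) against incisors and -0.01 (limma adjusted p = 0.925) against maxillary molars. It did not pass within the first sample set (-0.23, limma adjusted p = 0.229), or against incisors after quantile normalization or median centring. Without any 1 of incisors 2, 3 or 4 or of mandibular molars 3, 5 or 8 the adjusted p stayed at or below 0.0832 and the fold came under 1.2. The neuron and Schwann cell mean, the brain mean and the cartilage mean were likewise lower in every mandibular molar than in every incisor. By single genes, 3 of 14 neuron and Schwann cell genes were lower and 1 higher, 1 of 9 brain genes was lower, and 14 of 19 cartilage genes were lower and 1 higher. Against maxillary molars, where *Foxd3* had -0.01, the median log2 fold changes of these 3 lists were 0.10, 0.22 and -0.01. The part of such tissue in the *Foxd3* value was not tested.

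The other 5 genes listed under facial mesenchyme and neural crest passed in neither comparison. *Foxc1*, which shapes the anterior eye and skull, had 7.14 to 8.17 in mandibular molars (median 7.53), 7.40, 7.99, 7.08 and 7.51 in incisors and 7.81, 7.58, 7.34 and 7.16 in maxillary molars. It averaged 7.56 ± 0.32 in mandibular molars (SD, n = 8), 7.49 ± 0.38 in incisors and 7.47 ± 0.29 in maxillary molars (SD, n = 4 each), and the groups overlapped, with log2 fold changes of 0.07 (standard error 0.19, limma adjusted p = 0.866) and 0.09 (standard error 0.18, limma adjusted p = 0.786). *Foxl1*, a gene of gut mesenchyme, was at 5.74 to 6.20 in mandibular molars and at 6.30, 6.05, 6.86 and 6.25 in maxillary molars, with a log2 fold change of -0.46 that did not pass (standard error 0.13, limma adjusted p = 0.120). *Foxs1*, a gene of pericytes and sensory neurons, had 6.34 to 6.77 in mandibular molars, above maxillary molars at 6.21 to 6.31 (log2 fold change 0.26, limma adjusted p = 0.123). *Foxl2*, known from ovary and eyelid, and *Foxd4* changed by at most 0.11 in size in either comparison. Several of these genes lie side by side in the genome. *Foxf2* has *Foxq1* and *Foxc1* as its forkhead neighbours on chromosome 13, with 0 protein-coding genes between, and of these 3 *Foxf2* alone passed. On chromosome 8, *Foxf1*, *Foxc2* and *Foxl1* follow each other with 1 protein-coding gene between the first pair and 0 between the second, and *Foxf1* and *Foxc2* had opposite signs against incisors. *Foxe3*, a lens gene next to *Foxd2* on chromosome 4, had -0.24 against incisors (limma adjusted p = 0.199) and 0.06 against maxillary molars (limma adjusted p = 0.715).

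**Figure D3:**
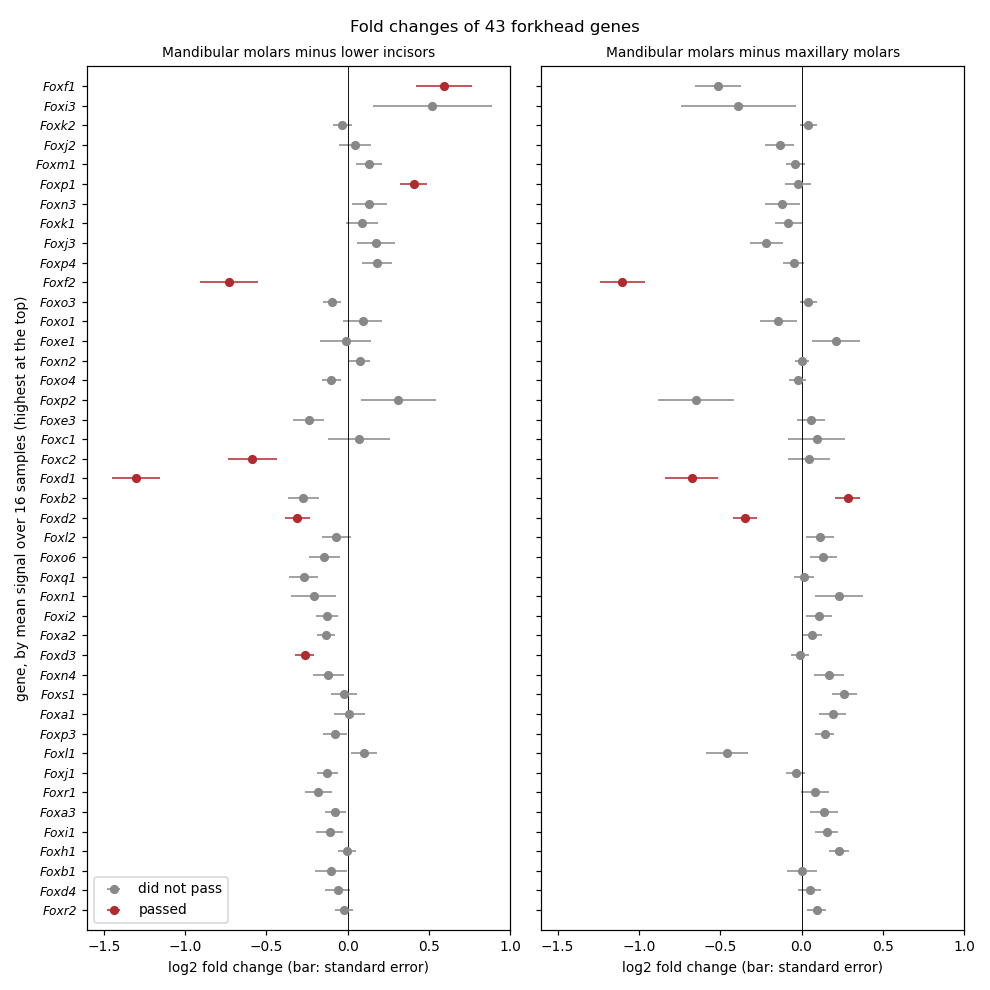
Log2 fold change of each forkhead gene, with its standard error as a bar, for mandibular molars minus lower incisors and for mandibular molars minus maxillary molars (red, passed at adjusted p under 0.1 and fold above 1.2). *Foxd1* at -1.30 and *Foxf2* at -1.10 are the only members past a fold of 2, each in 1 comparison.

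Among the 13 genes listed under epithelium and endoderm, 1 rose in mandibular molars compared with maxillary molars. None passed against incisors, where 4 had an unadjusted p under 0.05. The gene that rose was *Foxb2*, which is known from the developing brain, so its rise is not read as a result about epithelium. Its signal was 6.86 to 7.24 in mandibular molars (median 7.00), 7.36, 7.52, 7.34 and 6.98 in incisors and 6.72, 6.57, 6.85 and 6.84 in maxillary molars. The molars of the jaws did not overlap, and their gap was narrow. The log2 fold change was 0.28 against maxillary molars (standard error 0.08, limma adjusted p = 0.0991), which left the threshold within the second sample set (0.21, limma adjusted p = 0.270) and without any 1 of mandibular molars 1, 2, 3, 4, 6 or 8 or maxillary molars 1, 2, 3 or 4 (adjusted p up to 0.342). Against incisors it was -0.27 and did not pass (limma adjusted p = 0.158), but passed without incisor 4 (limma adjusted p = 0.0275) or without mandibular molar 3 (limma adjusted p = 0.0998).

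*Foxi3*, the tooth and hair gene, had the widest spread within mandibular molars of all 43 genes. Mandibular molars 1 to 4 had 9.85, 8.73, 10.30 and 10.46, and mandibular molars 5 to 8 had 10.87, 10.81, 10.90 and 11.03. The incisors had 9.72, 9.57, 9.80 and 10.30, and the maxillary molars 10.66, 10.64, 10.81 and 10.93. Mandibular molars 1 to 4 thus spanned the incisor range, and mandibular molars 5 to 8 overlapped the maxillary molars. The mean was 10.37 ± 0.77 in mandibular molars (SD, n = 8), 9.85 ± 0.32 in incisors and 10.76 ± 0.14 in maxillary molars (SD, n = 4 each). It passed neither against incisors (log2 fold change 0.52, standard error 0.36, limma adjusted p = 0.452) nor against maxillary molars (-0.39, standard error 0.35, limma adjusted p = 0.553). Within the sample sets the values were -0.01 (limma adjusted p = 0.998) and 0.14 (limma adjusted p = 0.497). Across the sets they were 1.05 for mandibular molars 5 to 8 against incisors (limma adjusted p = 0.00317) and -0.92 for mandibular molars 1 to 4 against maxillary molars (limma adjusted p = 0.0910). Without mandibular molar 2 it was 0.76 against incisors and passed (limma adjusted p = 0.0705). Mandibular molar 2, the lowest for *Foxi3* at 8.73, was also the lowest of the mandibular molars for the dental epithelium markers at 9.23 and the highest for the muscle genes at 8.68, and the part of either in the *Foxi3* value was not tested.

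*Foxe1*, known from thyroid and palate, ran the other way within the mandibular molars. Mandibular molars 1 to 4 had 8.84, 8.84, 8.79 and 8.74, and mandibular molars 5 to 8 had 8.06, 8.35, 8.40 and 8.23. The incisors had 8.36, 8.78, 8.57 and 8.46, and the maxillary molars 8.15, 8.41, 8.41 and 8.32. Mandibular molars 5 to 8 again overlapped the maxillary molars. The log2 fold change was -0.01 against incisors (standard error 0.16, limma adjusted p = 0.976) and 0.21 against maxillary molars (standard error 0.15, limma adjusted p = 0.450), and -0.06 within the second set (limma adjusted p = 0.826). Across the sets, mandibular molars 1 to 4 against maxillary molars gave 0.48, which came past the threshold. Against incisors the value was 0.26 within the first set and -0.28 for mandibular molars 5 to 8, and neither passed. *Foxa1*, *Foxa2* and *Foxa3*, the endoderm factors, had changes of -0.13 to 0.19 and none passed. The study names *Foxa3* as more expressed in incisors, in a network of genes above a fold change of 2. Here, with the incisor sample that the study left out kept, its log2 fold change against incisors was -0.08 (limma adjusted p = 0.550). Its signals were 5.34 to 5.70 in mandibular molars (mean 5.55) and 5.70, 5.60, 5.55 and 5.66 in the 4 incisors (mean 5.63). The reason for the difference from the study was not tested. *Foxq1* and *Foxn1*, known from hair, *Foxi1*, known from the inner ear, *Foxh1*, a partner of nodal signalling, *Foxi2* and *Foxb1* did not pass either, the nearest being *Foxh1* against maxillary molars (0.23, limma adjusted p = 0.105) and *Foxq1* against incisors (-0.27, limma adjusted p = 0.127).

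Signals did not overlap between mandibular molars 1 to 4 and 5 to 8 for 9 of the 43 forkhead genes (20.9%), and for 21.8% of all genes. The difference is a description, since the numbers of the samples carry no stated meaning. Higher in mandibular molars 1 to 4 were *Foxk2*, *Foxe1*, *Foxc1*, *Foxa1*, *Foxr1* and *Foxi1*, and higher in 5 to 8 were *Foxi3*, *Foxn3* and *Foxj3*. The mean of mandibular molars 1 to 4 minus that of 5 to 8 was -1.07 for *Foxi3*, 0.54 for *Foxe1*, 0.47 for *Foxc1*, -0.38 for *Foxn3* and -0.33 for *Foxj3*. *Foxf2*, *Foxd1* and *Foxd2* were not among the 9. Between maxillary molars and lower incisors, which were not tested against each other, signals did not overlap for 19 of 43 forkhead genes (44.2%) and for 36.9% of all genes. Tooth type, jaw and the sample sets as formed here cannot be told apart there. Higher in maxillary molars were 8 of the 19, *Foxf1*, *Foxi3*, *Foxm1*, *Foxp1*, *Foxn3*, *Foxj3*, *Foxp2* and *Foxl1*.

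**Figure D4:**
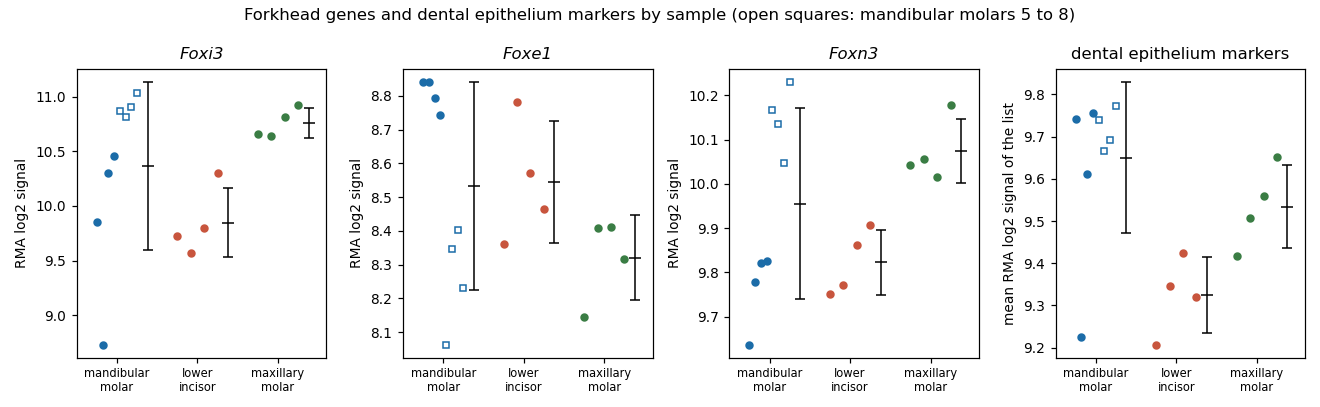
Log2 signal (RMA), 1 point per sample, of *Foxi3*, *Foxe1* and *Foxn3* and of the mean over the dental epithelium markers, in mandibular molars, lower incisors and maxillary molars, with the mean ± SD as a black bar and mandibular molars 5 to 8 as open squares. *Foxi3* was at 10.81 to 11.03 in mandibular molars 5 to 8, above 8.73 to 10.46 in mandibular molars 1 to 4, while *Foxe1* was at 8.06 to 8.40 in 5 to 8, below 8.74 to 8.84 in 1 to 4.

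Of the 4 FoxP genes, which encode repressors that act in heart, lung, brain and lymphocytes, *Foxp1* rose in mandibular molars compared with incisors. Its signal was 9.76 to 10.26 in mandibular molars (median 10.06), 9.54, 9.67, 9.62 and 9.74 in incisors and 10.01, 10.06, 10.07 and 10.16 in maxillary molars. Every molar of either jaw was above every incisor. The means were 10.05 ± 0.15 in mandibular molars (SD, n = 8), 9.64 ± 0.09 in incisors and 10.07 ± 0.06 in maxillary molars (SD, n = 4 each). The rise over incisors was 1.33-fold (log2 fold change 0.41, standard error 0.08, limma adjusted p = 0.0168) and was kept when any 1 sample was left out, but within the first sample set it was 0.32 and did not pass (limma adjusted p = 0.215). Against maxillary molars the value was -0.02 (limma adjusted p = 0.882). *Foxp2*, known from speech circuits of the brain, had 7.35 to 8.87 in mandibular molars and 8.88, 8.68, 8.50 and 8.16 in maxillary molars. Mandibular molar 7, at 8.87, was above the rest of its group, and the log2 fold change of -0.65 did not pass (standard error 0.23, limma adjusted p = 0.214). *Foxp3*, the factor of regulatory T cells, and *Foxp4* did not pass.

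None of the 4 FoxO genes and none of the 11 genes of cell cycle, cilia and general function passed in either comparison. *Foxo1* had 8.58 to 9.28 in mandibular molars (median 9.06), 8.79, 8.90, 8.87 and 9.23 in incisors and 9.10, 9.11, 9.12 and 9.41 in maxillary molars. It averaged 9.04 ± 0.21 in mandibular molars (SD, n = 8), 8.95 ± 0.20 in incisors and 9.18 ± 0.15 in maxillary molars (SD, n = 4 each), and the groups overlapped (log2 fold change 0.09, standard error 0.12, against incisors and -0.14, standard error 0.11, against maxillary molars). *Foxo3*, *Foxo4* and *Foxo6* changed by at most 0.14 in size. *Foxm1*, the mitotic regulator, had 9.84 to 10.14 in mandibular molars (median 10.01), 10.00, 9.63, 9.92 and 9.98 in incisors and 10.03, 10.06, 10.09 and 10.02 in maxillary molars. It averaged 10.01 ± 0.10 in mandibular molars (SD, n = 8), 9.88 ± 0.17 in incisors and 10.05 ± 0.03 in maxillary molars (SD, n = 4 each), and its log2 fold changes were 0.13 (standard error 0.08, limma adjusted p = 0.391) and -0.04 (standard error 0.06, limma adjusted p = 0.732). Maxillary molars lay within the mandibular range. Of the widely expressed factors, *Foxk2* had 10.03 to 10.27 in mandibular molars (median 10.17), 10.13, 10.09, 10.23 and 10.28 in incisors and 10.15, 10.06, 10.11 and 10.11 in maxillary molars. *Foxj2* had 9.73 to 10.18 in mandibular molars (median 10.10), 9.93, 9.85, 9.97 and 10.21 in incisors and 10.14, 10.19, 10.11 and 10.25 in maxillary molars. Both overlapped between mandibular molars and each other tooth type. *Foxj1*, the master gene of motile cilia, was low throughout, at 5.84 to 6.10 in mandibular molars (median 5.92), 5.99, 6.19, 6.05 and 6.03 in incisors and 5.92, 5.93, 6.08 and 5.99 in maxillary molars. Its changes of -0.12 and -0.04 had standard errors of 0.06 each. *Foxk1*, *Foxj3*, *Foxn2*, *Foxn3*, *Foxn4*, *Foxr1* and *Foxr2* changed by -0.22 to 0.18.

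Genes that act with these factors were counted by the same rule. Of 15 hedgehog pathway genes none passed against incisors, and *Gas1*, a hedgehog co-receptor, rose against maxillary molars (log2 fold change 0.44, limma adjusted p = 0.0219). There *Hhip*, *Ptch1* and *Gli1* were negative without passing (-0.88, -0.61 and -0.48, limma adjusted p = 0.115, 0.120 and 0.218), and *Ihh* was positive (0.21, limma adjusted p = 0.191). The study, with 1 incisor sample left out, lists *Ihh* and *Gas1* as enriched in incisors, but saw no difference of *Ihh* by qRT-PCR. Here they had -0.14 and -0.24 against incisors (limma adjusted p = 0.372 and 0.157). The median over the 15 was -0.14 against incisors and -0.04 against maxillary molars, where that of all tested probe sets was -0.02 and 0.02. Within the first sample set 2 of the 15 were lower, and within the second 1 was higher. Of 16 genes of the ectodysplasin and activin pathways, which act on *Foxi3*, 4 rose against incisors, *Edar* and *Edaradd* (receptor and adaptor of ectodysplasin), *Fst* (the activin inhibitor follistatin) and *Acvr2a* (an activin receptor), by 0.44, 0.48, 0.51 and 0.44, and none passed against maxillary molars. Within the first sample set 0 of the 16 passed. Of 21 tested FoxO targets, *Ccnd2*, *Fbxo32* and *Cited2* rose against incisors by 0.56, 0.55 and 0.52 and *Txnip* fell by 0.37, and *Fbxo32* fell against maxillary molars by 0.56. Within the first sample set 1 of the 21 was higher and 1 lower, and within the second 1 was lower. Of 22 regulators of FoxO, *Sgk1*, a kinase of FoxO proteins, fell against incisors by 0.36 and none passed against maxillary molars, with 0 of the 22 passing within either sample set. Of 16 FoxM1 targets, *Aurkb* and *Bub1* rose against incisors by 0.28 and 0.42, 0 of them within the first sample set, and none passed against maxillary molars. None of 23 tested genes of motile cilia passed in either comparison.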

How the data were processed

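Each sample of 4 pooled germs was hybridized to 1 array. The authors deposited log2 values, computed by RMA with Affymetrix Expression Console 1.1 per the labels, used here without further normalization. Probe sets were named by the platform annotation (21789 with 1 symbol, 1621 with several, 12146 with none). Each pair of tooth types was fitted on its own samples in limma 3.58.1 (lmFit, eBayes; R 4.3.3), for probe sets above 5 in at least 1 compared sample (FDR 0.1 by Benjamini-Hochberg, fold above 1.2, with above 2 beside it). The procedure was tested on simulated data. The study left out 1 of the 4 incisor samples for a technical problem, not named in the sources used here, so all 4 were used. The forkhead genes and the lists were chosen with earlier results of these data known. Full values are given for members that passed, for the 6 with the highest mean signal and for those known from teeth, and up to 3 passing genes of a pathway list are named by size of change. *Acvr2a*, *Txnip* and the hedgehog values that did not pass were added after they were seen. Promoter windows are RefSeq's (GRCm38.p6). The alternatives, given at the end, were other filters, normalizations, variances and probe sets, the methods' t-test, a joint fit of all 3 teeth, mandibular molars 1 to 4 or 5 to 8 alone, a replicate block and each sample left out. Arrays give no read depth, and the number of samples limits the precision.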

Additional observations from a re-analysis of the deposited data

Results flagged for a closer look

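Of 48 pairs of a named forkhead gene and a tooth type, 5 had 1 sample far from the rest of its group by Dixon's criterion, which chance meets in about 1 in 20 groups. *Foxd1* was 7.27 in mandibular molar 2, with the other mandibular molars at 6.56 to 6.82, and 6.83 in maxillary molar 4, with the other maxillary molars at 7.61 to 7.70. *Foxd3* was 6.64 in lower incisor 1, with the other incisors at 6.80 to 6.81. *Foxo1* was 8.58 in mandibular molar 2, with the other mandibular molars at 8.99 to 9.28, and 9.41 in maxillary molar 4, with the other maxillary molars at 9.10 to 9.12. Mandibular molar 2, in which *Foxd1* was high and *Foxo1* low, had the highest muscle gene mean of its group, at 8.68, and maxillary molar 4, in which *Foxd1* was low and *Foxo1* high, had the highest muscle gene mean of its own group, at 7.03. Mandibular molar 2 also had the lowest mean of its group for keratinizing epithelium (6.44), for macrophage and mast cell genes (7.03) and for dental epithelium (9.23), and maxillary molar 4 the highest of its group (7.12, 7.37 and 9.65 for the same lists). The part of any of these tissues in these values was not tested.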

How the results depend on the processing

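Values of single forkhead genes under the alternatives numbered 736. Of these, 652 kept their side of the threshold, 69 left it, 15 came past it and 0 were counted as reversed. A value that did not pass could change sign and still count as kept, as for *Foxc1* against incisors (-0.17 to 0.30). No call that passed changed its sign under any alternative. The count of forkhead genes higher in mandibular molars than in incisors was 2, and was 1 with no filter, after quantile normalization, after median centring, by the methods' t-test and with the lowest probe set of a gene, 0 with mandibular molars 1 to 4 only and 5 with mandibular molars 5 to 8 only. The count lower, 5, was 3 after quantile normalization and after median centring, 2 with mandibular molars 1 to 4 only (*Foxd1* and *Foxf2*) and 9 with mandibular molars 5 to 8 only. Against maxillary molars the count higher, 1, was 0 with no filter, after either normalization, by the methods' t-test, with trend and robust variances and with mandibular molars 5 to 8 only, and 5 with 1 to 4 only, and the count lower, 3, was 8 with 1 to 4 only. With 1 sample left out these 4 counts ran from 1 to 3 and 2 to 7 against incisors and from 0 to 2 and 1 to 4 against maxillary molars. The count lower against incisors was 2 without incisor 1, and that against maxillary molars was 1 without maxillary molar 1. The replicate block, on the samples numbered 1 to 4, gave 0 higher and 2 lower against incisors and 4 higher and 8 lower against maxillary molars. Samples with the same number correlated in their deviations by 0.08 to 0.51 against incisors and 0.00 to 0.34 against maxillary molars. The mandibular molar that correlated best had the same number for incisors 3 and 4 and maxillary molars 1 and 2. It had another number for incisors 1 and 2 and maxillary molars 3 and 4. These values do not settle whether samples were paired, and the labels state no pairs, so none were used. The cause of the changes in the counts was not tested. Against maxillary molars, *Foxd1* also did not pass by the methods' t-test (adjusted p = 0.130), nor did *Foxc2* against incisors (adjusted p = 0.102). *Foxd2* and *Foxd3* did not pass against incisors after quantile normalization (adjusted p = 0.107 and 0.128) or median centring (0.131 and 0.137). The call of *Foxf1* against incisors was lost at adjusted p of 0.104 to 0.147, and that of *Foxb2* against maxillary molars at 0.107 to 0.147, with no filter, after either normalization and by the methods' t-test. With 4 incisors and 4 maxillary molars, several calls near the threshold were lost when 1 sample was left out.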
